A study of Mus musculus with 6 samples.

Results

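Genes that mark the epithelium of the mammary gland were followed in inguinal white adipose tissue (iWAT) of cold-acclimated mice. The rule takes them by gene symbol, and all 10 members are among the 16538 genes listed. Of these, 8 are genes of luminal or simple epithelium (Epcam, Krt8, Krt18, Krt19, Elf5, Cldn3, Cldn4 and Cldn7) and 2 are basal keratins (Krt5 and Krt14). Their RNA varied between samples far more than between genotypes. The reads of all 10 made up 2.16 of every 1000000 reads in the lowest sample, a control, and 126 in the highest, an AKO sample. The 10 genes rose and fell together across samples, and none of them was called different between AKO and control iWAT.

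The fourth mammary gland of the mouse lies within the inguinal fat pad, so that its ducts are dissected with the fat. A duct has an inner luminal layer, which lines the lumen and makes milk, and an outer basal layer, which contracts. Luminal cells build their filaments mainly from keratins 8, 18 and 19, and basal cells from keratins 5 and 14. Claudins seal the tight junctions between luminal cells, EPCAM is an adhesion protein of the epithelial surface, and ELF5 is an ETS-family factor of milk-producing luminal cells. Most of these genes are also active in other epithelia, and the basal keratins in the epidermis as well. In male mouse embryos androgen makes the mammary bud regress, so that the adult male gland is rudimentary or absent.

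RNA-Seq was done on 3 control and 3 AKO samples, each of RNA pooled from 2 mice. Control mice are wt in the labels and carry the floxed Nrg4 allele on both chromosomes without Cre by the study's description (fl/fl). AKO mice lack Nrg4 in adipocytes by the study's description, through Adiponectin-Cre, a driver that is active in fat cells. All mice were chow fed and acclimated to 8°C, for 10 days in the labels and slightly longer in the study's text, and their age and sex are not in the labels. No group at another temperature was used here. Values are normalized counts, namely reads per gene divided by a size factor of the sample and not by gene length, from 17570335 to 18373707 reads per sample. Nothing in the labels says which mice shared a litter or cage, so p-values measure the spread between pools.

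The targeted gene Nrg4 had 3128, 3102 and 3092 normalized counts in control iWAT and 2577, 2627 and 2691 in AKO iWAT. No AKO sample reached the lowest control sample, with means of 3108 ± 18.3 and 2632 ± 57.3 (SD, n = 3 each) and an adjusted p of 0.298 from limma. The read count of the targeted gene thus stayed near its control level, whereas the study reports by qPCR that Nrg4 mRNA was almost lost from AKO iWAT. Since the values count reads over the whole gene, they do not show how much of the deleted part was left. They check the genotype labels only in part. Adipocyte genes were abundant in every sample, with Fabp4 between 172056 and 212899, Cidec between 37945 and 51040 and Adipoq between 28174 and 36454 normalized counts. Xist, which is transcribed from the silent X chromosome of female cells, had at most 3.05 normalized counts in any sample. The Y-linked genes Ddx3y, Eif2s3y, Kdm5d and Uty had at least 278 in each of the 6 samples. These levels are those of male tissue in all samples.

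To show the regulatory sequence of genes that moved together, the 250 bases before the RefSeq start site were read for both partners of the luminal keratin pair, for Epcam and for Krt5 (RefSeq, GRCm38.p6, each given on the strand of its gene). Such windows were given for 9 of the 10 members, all but Krt19. Krt8 and Krt18 lie side by side on chromosome 15 (chr15:102004343-102004592 on the minus strand and chr15:102027966-102028215 on the plus strand). The window of Epcam is chr17:87635729-87635978 on the plus strand, and that of Krt5 is chr15:101712906-101713155 on the minus strand. Capitals mark the letters GGAAG (ETS family), GCCNNNGGC (AP-2) and GGGCGG (SP and KLF families) on either strand.
Krt8: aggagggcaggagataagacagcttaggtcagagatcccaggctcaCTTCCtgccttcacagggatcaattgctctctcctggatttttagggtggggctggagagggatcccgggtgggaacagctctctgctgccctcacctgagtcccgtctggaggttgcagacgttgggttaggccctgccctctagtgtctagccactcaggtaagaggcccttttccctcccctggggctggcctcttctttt
Krt18: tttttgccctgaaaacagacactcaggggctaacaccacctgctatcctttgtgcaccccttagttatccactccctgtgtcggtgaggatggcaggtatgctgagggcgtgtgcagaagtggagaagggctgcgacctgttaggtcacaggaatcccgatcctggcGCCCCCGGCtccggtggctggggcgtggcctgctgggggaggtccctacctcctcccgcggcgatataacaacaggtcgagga
Epcam: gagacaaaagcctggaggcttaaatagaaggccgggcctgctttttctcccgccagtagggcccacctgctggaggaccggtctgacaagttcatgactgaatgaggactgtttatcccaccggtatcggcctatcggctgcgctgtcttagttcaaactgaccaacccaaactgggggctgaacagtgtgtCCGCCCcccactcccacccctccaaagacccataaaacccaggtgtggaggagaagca
Krt5: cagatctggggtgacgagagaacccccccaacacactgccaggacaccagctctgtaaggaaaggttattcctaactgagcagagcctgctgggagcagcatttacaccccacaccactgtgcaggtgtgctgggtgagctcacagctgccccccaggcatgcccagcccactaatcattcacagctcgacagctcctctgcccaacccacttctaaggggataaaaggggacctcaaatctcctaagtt

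The letters GGAAG were in 4 of the 11 windows of the members (those of Krt8, Cldn7 and Elf5), beside 64.1% of all 32851 windows of this length. GGGCGG was in 4 of the 11 (Epcam, Cldn3, Cldn4 and Cldn7), beside 32.7% of all windows. GCCNNNGGC was in the Krt18 window alone among the members and in 13.7% of all windows. TATAAA was in none of the members' windows and in 12.4% of all, and the grainyhead-like letters AACCNGTT were in none and in 1.79% of all. No short sequence of those searched was common to all the members that had a window.

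Among the keratins of simple epithelium, Krt8, the type II partner of keratin 18 (chromosome 15 of GRCm38, 101996698 to 102004482), had 62.2, 0 and 123 normalized counts in control replicates 1, 2 and 3. In AKO replicates 1, 2 and 3 it had 15.4, 198 and 70.4. Krt18 (chromosome 15, 102028180 to 102032027), the type I partner, had 132, 8.60 and 312 in control iWAT and 36.5, 447 and 148 in AKO iWAT. Both were lowest in control replicate 2, next in AKO replicate 1 and highest in AKO replicate 2, and their groups overlapped. Krt19 (chromosome 11, 100140810 to 100148665), a short type I keratin of ducts, was the most abundant member by count, with 172, 19.4 and 381 in control iWAT. It had 74.9, 706 and 272 in AKO iWAT. These values put the 6 samples in the same order as Krt8 and Krt18 did.

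Epcam (chromosome 17, 87635979 to 87651129) had 72.3, 0 and 166 normalized counts in control iWAT and 18.2, 265 and 81.0 in AKO iWAT. Elf5 (chromosome 2, 103411688 to 103450989), the transcription factor, had 19.1, 1.08 and 42.7 in control iWAT and 3.84, 83.0 and 23.1 in AKO iWAT. Its 1.08 in control replicate 2 was a single read. Epcam and Elf5 were again lowest in control replicate 2 and highest in AKO replicate 2. At 0 reads in control replicate 2, a level of up to 3.23 normalized counts (3 reads) is not excluded by counting. Epcam was therefore at least 82.0-fold higher in AKO replicate 2 than in control replicate 2, and Krt8 at least 61.4-fold.

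Of the claudins, Cldn3 (chromosome 5, 134986214 to 134987472) had 38.1, 9.68 and 85.4 normalized counts in control iWAT and 24.0, 109 and 58.8 in AKO iWAT. Its neighbour Cldn4 (chromosome 5, 134945119 to 134946934) had 43.2, 0 and 136 in control iWAT and 6.72, 146 and 45.3 in AKO iWAT. Cldn7 (chromosome 11, 69964779 to 69967885) had 15.1, 2.15 and 15.2 in control iWAT and 6.72, 44.9 and 16.4 in AKO iWAT. All claudins were lowest in control replicate 2 and highest in AKO replicate 2. Cldn3 spanned the smallest ratio of the members with reads in every sample, 11.3-fold from lowest to highest (95% counting interval 5.74 to 25.4). The ratio was 20.9 for Cldn7 (5.46 to 178), 36.5 for Krt19 (22.9 to 61.9), 52.0 for Krt18 (26.2 to 121) and 77.2 for Elf5 (13.5 to 3083, from 1 read in the lowest sample).

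In the basal layer, Krt5 (chromosome 15, 101707070 to 101712898), the type II keratin, had 64.2, 0 and 97.6 normalized counts in control iWAT and 10.6, 168 and 58.8 in AKO iWAT. Krt14 (chromosome 11, 100203162 to 100207548), its type I partner, had 24.1, 0 and 63.0 in control iWAT and 10.6, 51.7 and 22.2 in AKO iWAT. Krt14 was the member that was not highest in AKO replicate 2, since control replicate 3 was above it. Both basal keratins were at 0 in control replicate 2, as were Epcam, Krt8 and Cldn4. These 5 members had reads in each of the other 5 samples.

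**Figure D1:**
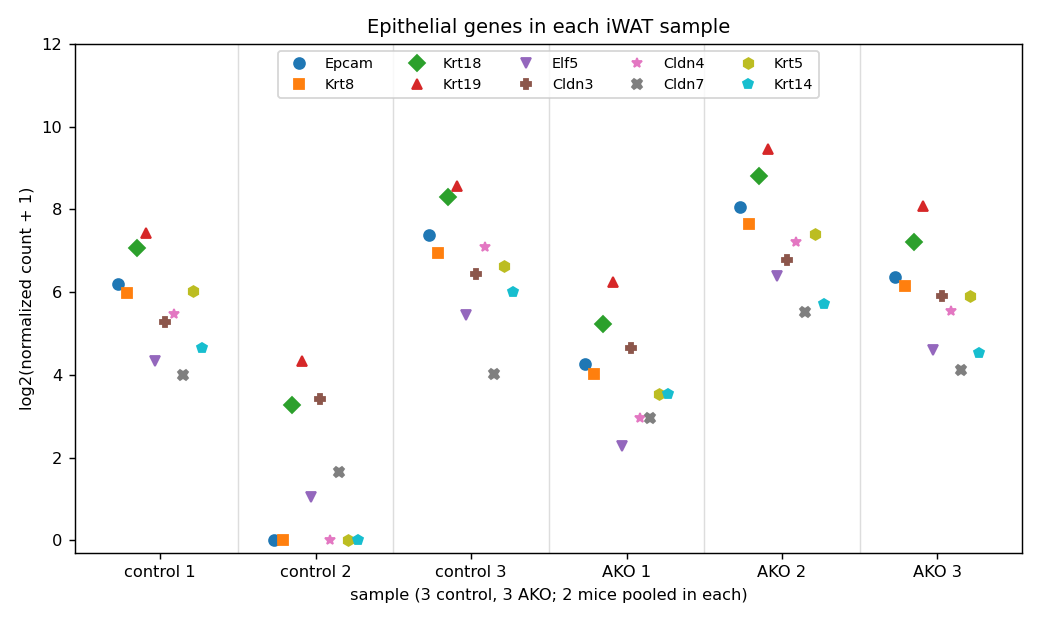
Level of each of the 10 epithelial genes (y axis, log2 of the normalized count plus 1) in each of the 3 control and 3 AKO samples (x axis), with 1 point per gene and sample. The points of control 2 lie lowest, with 5 genes at 0, those of AKO 1 come next, and those of AKO 2 and control 3 lie highest.

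Across the 6 samples the members followed each other closely. On the log2(normalized count + 1) scale, Pearson's r lay between 0.897 and 0.9997 over the 45 pairs of members, with a median of 0.979, as a description over 6 samples whose values share libraries and depth. The mean of the luminal members and the mean of the basal members had an r of 0.988. All 10 members were lowest in control replicate 2 and second lowest in AKO replicate 1, and 9 were highest in AKO replicate 2. For 7 members the whole order of the samples was the same, from control 2, AKO 1, control 1, AKO 3 and control 3 to AKO 2. Of the 13855 genes that averaged 10 normalized counts or more, 811 (5.85%) were lowest in control 2 and highest in AKO 2. This pattern was chosen as a measure after the values were seen, and so it is given as a description.

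Summed over the 8 luminal members, the level was 554, 40.9 and 1262 normalized counts in control iWAT and 186, 1999 and 714 in AKO iWAT. It was 48.9-fold higher in AKO replicate 2 than in control replicate 2 (95% counting interval 35.5 to 69.3). Within the AKO group the highest sample was 10.7-fold above the lowest (9.26 to 12.5), and within the control group 30.9-fold (22.4 to 43.8). The mean was 619 ± 613 in control and 967 ± 933 in AKO (SD, n = 3 each), a ratio of 1.56. The ratio was 0.728 without AKO replicate 2, 1.06 without control replicate 2 and 3.25 without control replicate 3, so that its direction rested on single samples. The 2 basal members summed to 88.3, 0 and 161 normalized counts in control iWAT and to 21.1, 220 and 81.0 in AKO iWAT, with means of 83.0 ± 80.4 and 107 ± 102 (SD, n = 3 each). The basal ratio of AKO to control, 1.29, was 0.615 without AKO replicate 2, 0.862 without control replicate 2 and 2.43 without control replicate 3. In both sums the SD within each group was about as large as the mean. In bulk tissue, fewer epithelial cells and less RNA in each epithelial cell cannot be told apart.

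As a share of the library, the 10 members took 36.3 of every 1000000 reads in control replicate 1 (95% Wilson interval 33.6 to 39.2), 2.16 in control replicate 2 (1.58 to 2.97) and 77.2 in control replicate 3 (73.2 to 81.3). In the AKO samples they took 11.8 (10.3 to 13.4), 126 (121 to 132) and 45.2 (42.2 to 48.4). The 6 intervals did not overlap, so that every sample differed from every other by more than counting error. These intervals cover counting error only, since the reads carried no molecular identifiers as far as the sources used here tell.

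The proportion between the 2 layers ranged far less than the amount of epithelial RNA among samples with basal reads. Krt5 and Krt14 made up 13.7% of the members' reads in control replicate 1 (95% Wilson interval 11.3 to 16.6) and 11.3% in control replicate 3 (9.74 to 13.1). They made up 10.2% (6.82 to 14.9), 9.90% (8.74 to 11.2) and 10.2% (8.30 to 12.4) in AKO replicates 1, 2 and 3. Of these 5 intervals, those of control replicate 1 and AKO replicate 2 did not overlap. In control replicate 2 they had 0 of 38 reads, which allows a share of up to 7.89%. Its Wilson upper bound, 9.18%, lay under the lower bounds of control replicates 1 and 3 and within the intervals of all 3 AKO samples. The limit of 3 reads, 7.89%, lay under the lower bounds of AKO replicates 2 and 3 as well. Whether control replicate 2 stood apart from these AKO samples thus depends on the limit used. The 38 reads were those of Krt19 (18), Cldn3 (9), Krt18 (8), Cldn7 (2) and Elf5 (1).

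Within the luminal keratin pair, Krt8 made up 32.0% (25.8 to 38.8) of the reads of Krt8 and Krt18 in control replicate 1 and 28.3% (24.2 to 32.7) in control replicate 3. The share was 29.6% (19.1 to 42.8), 30.7% (27.3 to 34.3) and 32.3% (26.5 to 38.6) in AKO replicates 1, 2 and 3, and all 5 intervals overlapped. In control replicate 2 it was 0 of 8 reads, which allows up to 37.5%. The basal pair was less even. Krt5 made up 60.8% (53.0 to 68.0) of the reads of Krt5 and Krt14 in control replicate 3 and 76.4% (70.5 to 81.5) in AKO replicate 2, and these intervals did not overlap. The lowest share, 50% (30.7 to 69.3) in AKO replicate 1, did not overlap that of AKO replicate 2 either. Cldn4 likewise made up 61.5% (54.9 to 67.7) of the reads of Cldn3 and Cldn4 in control replicate 3 and 21.9% (11.02 to 38.8) in AKO replicate 1. Here too the intervals did not overlap.

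**Figure D2:**
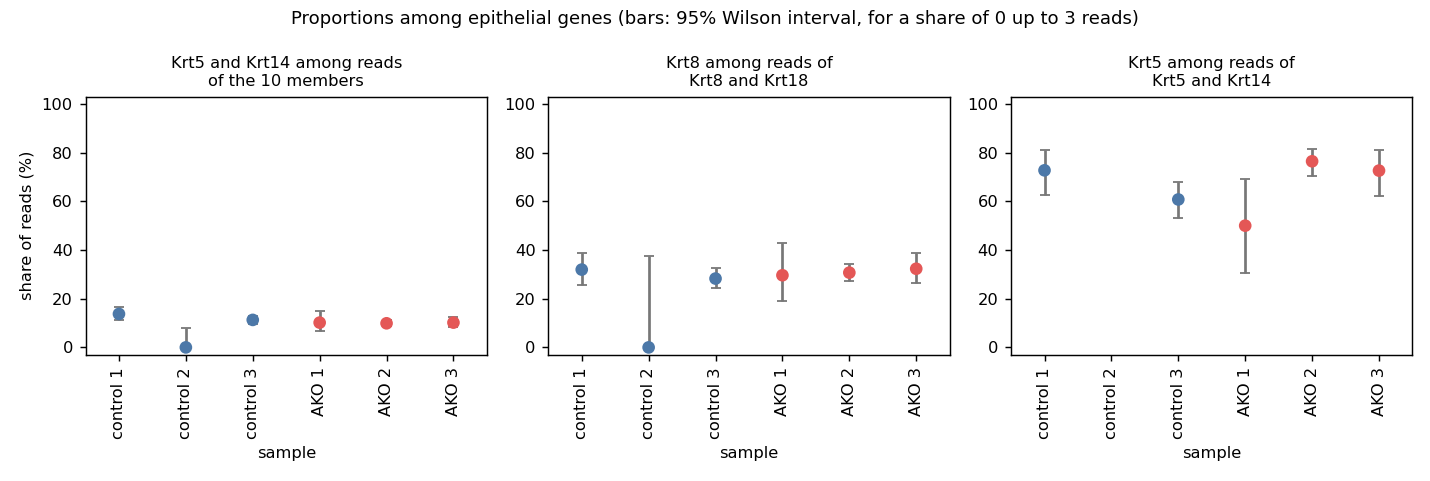
Share of reads in percent (y axis) in each sample (x axis, blue for control and red for AKO): the basal keratins among all 10 members, Krt8 within the pair Krt8 and Krt18, and Krt5 within the pair Krt5 and Krt14. Bars are 95% Wilson intervals, or the limit of 3 reads for a share of 0, and the Krt8 share lies between 28.3% and 32.3% in the 5 samples with Krt8 reads.

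To compare levels between genes, counts were divided by exon length (GENCODE M21). Krt19 had the highest median over the 6 samples, 120 normalized counts per kb, followed by Krt18 with 97.4. Krt19 was first in 5 samples and Krt18 in control replicate 3. Cldn3, Epcam and Krt8 came next with medians of 38.5, 34.9 and 33.9 per kb, then Krt5 with 28.0 and Cldn4 with 24.4. Krt14 had 13.2, Cldn7 7.78 and Elf5 3.59 per kb. Each gene ranged more between samples than neighbours in this order differed, but the members rose and fell together. Within samples, Cldn7 ranked 9 and Elf5 10 in all but control replicate 2, where several members had no reads. The genes from Cldn3 to Cldn4 in this order changed places between samples. Exons shared with another gene made up 5.16% of Krt8, 5.87% of Krt5 and 3.18% of Cldn3, and none in the other members. Keratins have near copies in the genome, and the treatment of reads that fit several copies is not given in the sources used here.

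The comparison of AKO with control iWAT asks whether loss of adipocyte Nrg4 came with a different amount of epithelial RNA. On the log2(normalized count + 1) scale, limma was fitted over the 13855 genes that averaged 10 or more, which all 10 members passed. None of the 10 was called at an adjusted p under 0.05, where 2 of all genes (0.0144%) were. At a p under 0.05 before adjustment the count was 0 of 10 beside 9.1% of all genes, and the groups overlapped for all 10 members, where 14.5% of genes did not overlap. DESeq2, run on whole reads recovered from the values, also called 0 of 10, beside 0.998% of genes, and edgeR called 0 of 10. The adjusted p-values of the members lay between 0.787 and 0.913 from limma. The exact 2-sided permutation test gave p from 0.4 to 0.9, where 3 samples against 3 cannot go below 0.1.

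The point estimates were all above 0, with log2 fold changes (AKO minus control) from 0.73 for Cldn3 to 1.70 for Epcam and a median of 1.04, beside 0.01 over all genes tested. The size depended on how low values were treated. The median was 0.58 with edgeR and 0.58 with DESeq2, 1.63 with a pseudocount of 0.1 and 0.55 with a pseudocount of 10. For Epcam the log2 fold change was 0.61 with edgeR and DESeq2, 2.79 with a pseudocount of 0.1 and 0.76 with a pseudocount of 10. The standard error exceeded the limma estimate for 8 of the 10 members. For Epcam the log2 fold change was 1.70 with a standard error of 1.81, so the 95% interval ran from 0.178-fold to 59.4-fold. For Krt19 it was 1.15 with a standard error of 1.12 (interval 0.368-fold to 13.4-fold). For Krt5 it was 1.39 with a standard error of 1.72 (interval 0.168-fold to 41.2-fold). The narrowest interval, that of Cldn3, still ran from 0.473-fold to 5.83-fold. With 3 samples against 3, a rise of several fold thus lay inside the interval of every member. At the low end the intervals of Cldn3 and Cldn7 stopped at 0.473-fold and 0.519-fold, and those of the other members reached lower.

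The sign of these estimates rested on control replicate 2. Without it, 9 of the 10 log2 fold changes were below 0, from -1.05 for Cldn4 to -0.070 for Krt19, and the estimate of Cldn7 was 0.18. Krt14 had a mean of 29.0 ± 31.8 in control and 28.2 ± 21.2 in AKO (SD, n = 3 each), while its estimate on the log scale was 1.05. With edgeR and DESeq2 its log2 fold change was -0.043 and -0.045. No member was called without control replicate 2 or without any other sample.

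**Figure D3:**
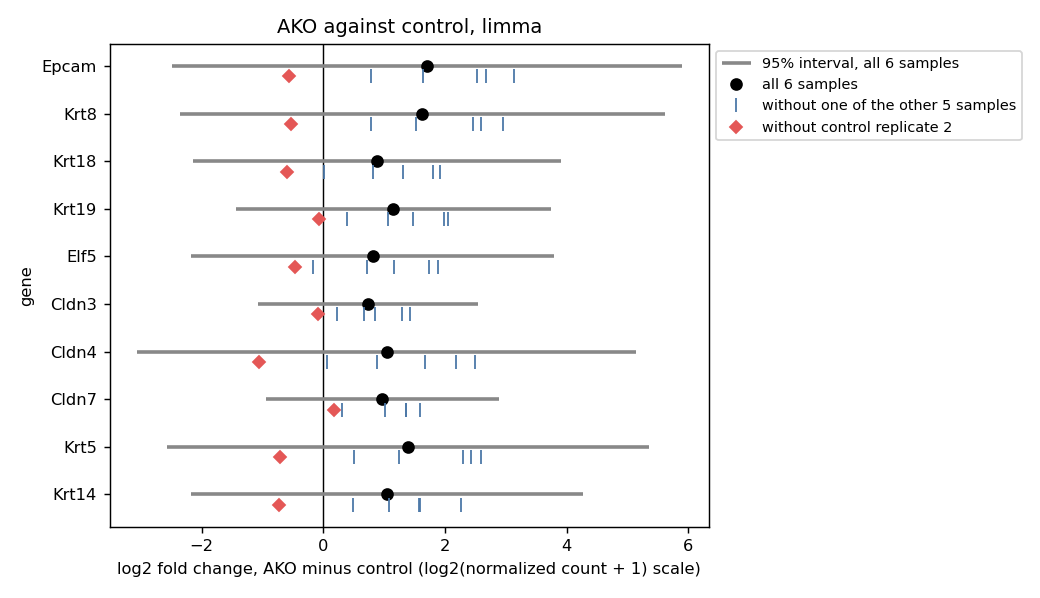
log2 fold change of each member, AKO minus control (x axis), with the limma estimate from all 6 samples (black), its 95% interval (grey), and the estimates without control replicate 2 (red) and without each of the other 5 samples (blue). Every interval holds 0, and 9 of the 10 red points lie below 0.

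The spread within groups was the main feature of these genes. The residual SD of the members within groups lay between 1.32 (Cldn3) and 3.11 (Epcam) on the log2 scale, beside a median of 0.14 over all genes tested. It was larger than that of 98.3% of genes for Cldn3 and of 99.9% for Epcam. The coefficient of variation within a group was 67.0% to 116%, while counting alone gives 5.26% to 30.6% at these means.

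Many other genes of luminal cells were high and low in the same samples as the members, and some were not. Of 21 further luminal genes, 17 were tested, none was called, and 15 had estimates above 0 and 2 below, with a median log2 fold change of 0.51. The median was -0.0060 without control replicate 2 and 0.13 without AKO replicate 2. Of the 17, 12 were lowest in control 2 and highest in AKO 2. Krt7, another keratin of ducts, had 43.2, 0 and 95.6 normalized counts in control iWAT and 10.6, 166 and 57.8 in AKO iWAT. Foxa1, a partner factor of the estrogen receptor, had 104, 1.08 and 242 in control iWAT and 42.3, 371 and 94.5 in AKO iWAT. Ltf, which encodes the milk protein lactoferrin, had 182, 0 and 483 in control iWAT and 8.64, 612 and 186 in AKO iWAT. Pgr, the progesterone receptor, had 12.04, 0 and 29.5 in control iWAT and 7.68, 77.1 and 28.0 in AKO iWAT. The choice of these 4 to name was made with their values in view.

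Of the most abundant genes of that list, Esr1 and Aldh1a3 did not share the pattern, while Kit shared its lowest and highest sample. Esr1, the estrogen receptor gene, which stromal and fat cells also express, lay between 1198 and 1623 in all samples, with an r of 0.17 to the luminal mean. Kit, a receptor also made by mast cells, had its lowest value, 388, in control 2 and its highest, 876, in AKO 2 (r = 0.80). Aldh1a3, an enzyme of retinoic acid synthesis, lay between 294 and 577 (r = -0.05).

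Regulators and junction genes of epithelia were divided between genes with the members' pattern and genes without it. Of 10 transcription and splicing regulators, 9 were tested, none was called, 8 estimates were above 0 and 1 below (median 0.29), and 5 were lowest in control 2 and highest in AKO 2. The median was -0.38 without control replicate 2 and -0.38 without AKO replicate 2. Grhl1 varied least of the 3 most abundant, from 88.3 to 139 normalized counts. Tfap2a, an AP-2 factor, had 23.1, 2.15 and 47.8 in control iWAT and 5.76, 82.0 and 31.8 in AKO iWAT. Ehf, an ETS-family relative of Elf5, had 23.1, 3.23 and 53.9 in control iWAT and 3.84, 85.9 and 13.5 in AKO iWAT. Of 20 junction and membrane protease genes, 17 were tested and none was called, 14 estimates were above 0 and 3 below (median 0.36), and 10 were lowest in control 2 and highest in AKO 2. The junction median was -0.064 without control replicate 2 and -0.048 without AKO replicate 2. Jup and F11r, junction genes of many cell types, stayed between 2895 and 3686 and between 1084 and 1278. Spint2, a protease inhibitor of epithelia, had its lowest value, 95.7, in control 2 and its highest, 311, in AKO 2.

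For the name mammary, milk protein genes bear on the label most directly. Of 10 such genes, 5 were listed and 4 tested. The other 5, most caseins among them, were looked for and were not among the genes listed. Csn3, which encodes kappa-casein, had 84.3, 2.15 and 422 normalized counts in control iWAT and 40.3, 421 and 138 in AKO iWAT. Btn1a1, a protein of the milk fat globule, had 20.1, 1.08 and 71.2 in control iWAT and 11.5, 88.8 and 27.0 in AKO iWAT. Both were lowest in control 2, as the members were. Lalba, which encodes alpha-lactalbumin, had at most 5.78 in any sample. Trf, transferrin, which many cell types make, lay between 29776 and 38652. None of the 4 was called, and all 4 estimates were above 0 (median 0.62). The median was -0.40 without control replicate 2, 0.21 without AKO replicate 2 and 1.62 without control replicate 1. Of the 4 tested, Csn3 and Btn1a1 had an r of 0.99 to the luminal mean, Glycam1 had 0.57 and Trf -0.63. The label mammary thus rests on Elf5 and on part of the milk protein list, Csn3 and Btn1a1, beside general epithelial genes. The sex-linked genes of these samples are those of males, and the source of the RNA was not tested.

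The wider basal list was mixed. Of 20 other basal or myoepithelial genes, 15 were tested and none was called by the main limma fit or edgeR, while DESeq2 called 1, Lgr6. In limma 9 estimates were above 0 and 6 below (median 0.10, and -0.19 without control replicate 2 and -0.18 without AKO replicate 2), and 4 genes were lowest in control 2 and highest in AKO 2. Col17a1, a collagen of the anchoring junction of basal cells, had 35.1, 7.53 and 45.7 in control iWAT and 16.3, 59.6 and 37.6 in AKO iWAT. Itga6 lay between 1736 and 2272 and Itgb4 between 374 and 463, and both encode integrin chains that vessels or nerves also carry. Oxtr, the oxytocin receptor through which basal cells contract, had 305, 372 and 477 in control iWAT and 488, 1138 and 640 in AKO iWAT. Its groups did not overlap, but it was not called (log2 fold change 0.90, standard error 0.30, adjusted p = 0.473 from limma).

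Markers of other tissues that could carry keratins or be dissected with the fat were set beside the members. Of 20 genes of epidermis and hair follicle, 8 were listed and 5 tested, and the 8 summed to between 396 and 593 normalized counts, lowest in AKO 2. Sbsn lay between 249 and 395, Krt79 between 65.6 and 116 and Dmkn between 19.5 and 46.8, and the differentiation marker Lor had at most 12.04. The groups did not overlap for Krt79, which had 115, 100.01 and 116 in control iWAT and 82.6, 86.9 and 65.6 in AKO iWAT, without being called (log2 fold change -0.50, standard error 0.15, adjusted p = 0.450 from limma). None of the 5 was called, 1 estimate was above 0 and 4 below (median -0.06). Of 8 mesothelial genes, 4 were listed and summed to between 92.2 and 138, with Lrrn4 between 55.7 and 92.7, Gpm6a between 29.0 and 44.7 and the defining marker Msln at 4.07 or less. Neither of the 2 tested was called, and both estimates were below 0 (median -0.15). None of the genes tested in these 2 lists was lowest in control 2 and highest in AKO 2.

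The inguinal lymph node lies in the same fat pad. Its 10 B and T cell genes summed to 1226, 156 and 139 normalized counts in control iWAT and to 165, 1632 and 127 in AKO iWAT. Control replicate 1 and AKO replicate 2 were thus high, whereas control replicate 3, which held the second most epithelial RNA, was low. Fcer2a ranged from 6.75 to 291 and Cd79a from 9.64 to 247. None of the 10 was called (8 estimates above 0 and 2 below, median 0.15, and -1.03 without AKO replicate 2 and 1.06 without control replicate 1). The 10 skeletal muscle genes summed to 129, 20769 and 11750 in control iWAT and to 15251, 58650 and 90116 in AKO iWAT, with none called (8 above 0 and 2 below, median 3.93, and 1.41 without control replicate 1). Acta1 ranged from 62.2 to 27039, Myh4 from 8.03 to 24531 and Tnnt3 from 13.05 to 11398. The 8 adipocyte genes summed to between 315029 (AKO 2) and 374718 (control 3), with none called (1 above 0 and 7 below, median -0.09). AKO replicate 2, highest in epithelial RNA, was thus also highest in lymph node RNA and lowest in summed adipocyte RNA, and the part of these in the results was not tested.

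**Figure D4:**
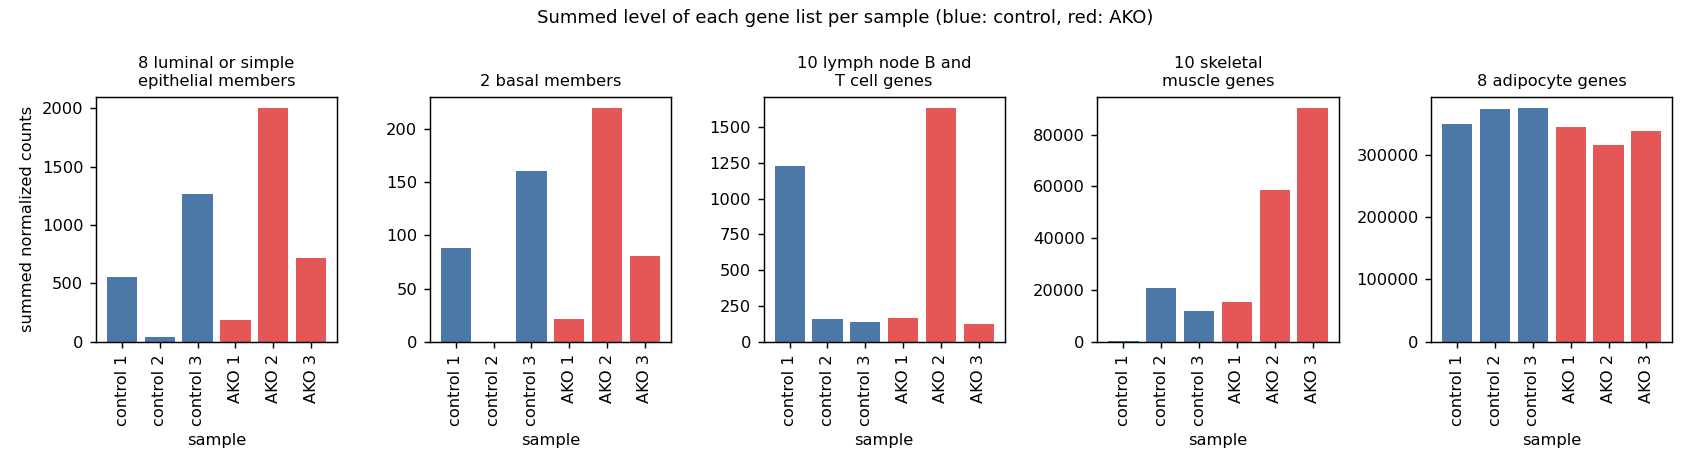
Summed normalized counts (y axis, each panel on its own linear scale from 0) of the luminal members, the basal members, lymph node genes, skeletal muscle genes and adipocyte genes in each sample (x axis, blue for control and red for AKO). The luminal sum is highest in AKO 2 and control 3, the lymph node sum in AKO 2 and control 1, and the muscle sum in AKO 3.

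Likeness to the luminal members was measured as Pearson's r over the 6 samples with their mean log2 level. The median r was 0.96 over the 17 other luminal genes tested, 0.91 over the 9 regulators, 0.91 over the 17 junction genes, 0.78 over the 4 milk protein genes and 0.50 over the 15 basal genes. It was 0.47 over the 10 lymph node genes, 0.02 over the 10 muscle genes, -0.21 over the 5 epidermal genes, 0.59 over the 2 mesothelial genes and -0.28 over the 8 adipocyte genes. It was 0.15 over the 4 Y-linked genes, with 0.92 for Kdm5d, whose level changed little (286 to 366). In all, 192 genes other than the members had an r above 0.9, of 13855 tested.

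**Figure D5:**
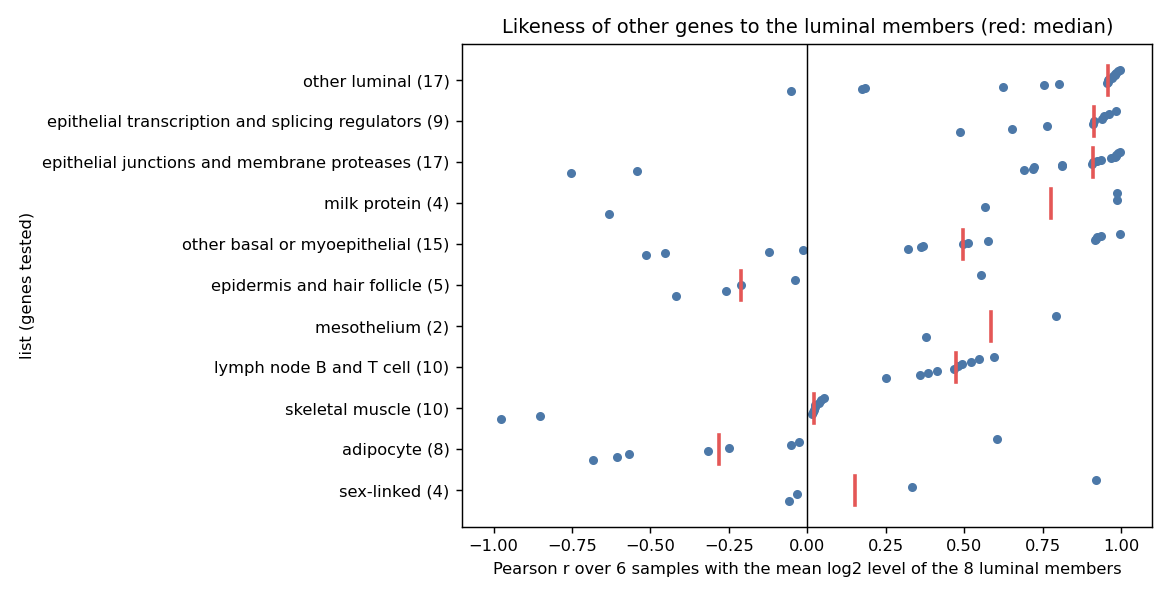
Pearson's r over the 6 samples between each listed gene and the mean log2 level of the 8 luminal members (x axis), by list (y axis, number of genes tested in brackets), with 1 point per gene and the median in red. The medians of luminal, regulator and junction genes are 0.91 or more, and muscle genes gather near 0 but for 2 below -0.8.

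Among genes whose log2 level ranged over at least 1, the 10 most like the luminal members included Rasef, Trim29, Fam84a, Slc5a5, Col4a6, Dkk3, Col17a1, Krt7 and Tmprss2. The r of all 10 was 0.996 or more. Slc5a5, the iodide transporter of thyroid and mammary epithelium, had 27.1, 1.08 and 40.7 normalized counts in control iWAT and 7.68, 68.3 and 31.8 in AKO iWAT. Tmprss2, a surface protease of glandular epithelia, had 65.2, 2.15 and 131 in control iWAT and 16.3, 169 and 58.8 in AKO iWAT. The 10 most like the basal members were Prom2, Krt7, Foxa1, Tmprss2, Cxcl17, Fcgbp, Dkk3, Wwc1, Rasef and Dsp, with r of 0.990 or more. Prom2, a membrane protein of epithelial protrusions, had 61.2, 0 and 128 in control iWAT and 18.2, 134 and 55.9 in AKO iWAT. Fcgbp, which encodes a mucus protein, had 174, 1.08 and 345 in control iWAT and 66.3, 525 and 191 in AKO iWAT. The lists shared 4 genes (Krt7, Tmprss2, Dkk3 and Rasef). All 16 distinct genes were lowest in control 2 and highest in AKO 2. None of the 16 was called, with adjusted p-values from 0.807 to 0.901 (limma). The genes were chosen by likeness to the members over the same 6 samples, which made both results nearly certain.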

How the data were processed

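RNA-Seq of iWAT from 3 control and 3 AKO samples was used, grouped by the genotype in their titles. The authors aligned reads to GRCm38 with STAR, obtained gene counts from featureCounts with a GENCODE annotation, and deposited a signal per gene and sample, the count divided by a DESeq2 size factor. Whether counting used strand is not given in the sources used here. Columns with the authors' own log2 fold change and p-value for this contrast stand beside the deposited values and were left unused.

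The 10 members and all lists were chosen with earlier results of these data known. Genes with a mean of at least 10 (13855 of 16538) were tested on log2(value + 1) with limma 3.58.1 in R 4.3.3, with a trend in the variance and Benjamini-Hochberg adjustment. The added 1 gave smaller fold changes of low genes than an added 0.1 (member medians of 1.04 and 1.63). They were still larger than those of edgeR and DESeq2 (medians of 0.58 each). Values were whole multiples of the value of 1 read for 100% of entries (tolerance 0.01), and the reads so recovered were tested with edgeR 4.0.16 and DESeq2 1.42.0. Depth ranged from 17570335 to 18373707 reads. Samples of a group differed from each other beyond sampling noise (chi-square over its degrees of freedom, 9.86 or more). Each fit was checked on simulated data. Named are the members, the 3 most abundant genes of each list, the Y-linked genes and Xist, and the 10 genes most like each layer, from genes with a mean of at least 10 and a log2 range of at least 1. Of these, 2 genes are not reported here. Others were named after their values were seen. Alternatives were pseudocounts of 0.1 and 10, other filters, TMM factors, the other tests, a replicate block and each sample left out.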

Additional observations from a re-analysis of the deposited data

How the results depend on the processing

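No member was called under any setting run, and the smallest adjusted p of a member over all of them was 0.600 (without control replicate 3, limma). Leaving out single samples, the log2 fold change ranged from -0.56 to 3.13 for Epcam, -0.53 to 2.95 for Krt8, -0.59 to 1.92 for Krt18, -0.070 to 2.05 for Krt19, -0.47 to 1.88 for Elf5, -0.084 to 1.42 for Cldn3, -1.05 to 2.50 for Cldn4, 0.18 to 1.59 for Cldn7, -0.71 to 2.60 for Krt5 and -0.73 to 2.27 for Krt14. The low end came without control replicate 2 in all 10, where 9 were below 0, and Elf5 was also below 0 without AKO replicate 2 (-0.18). Krt14 was at -0.043 with edgeR and -0.045 with DESeq2. The pseudocounts, TMM factors, replicate block and absent filter kept all 10 above 0. With at least 10 normalized counts in every sample, Krt19 was the single member left to test. Over all genes, limma called 2, and 6 with that filter, DESeq2 called 149, and between 0 and 3 were called with a sample left out. The cause was not tested. With the replicate block, 0 members and 2 genes were called. Deviations of same-numbered samples from their group means had r of 0.14, -0.35 and 0.24 for numbers 1, 2 and 3. Samples of unlike number had r from -0.50 to 0.34. With 3 samples in each group, such values can neither show nor exclude a pairing. With TMM factors the summed luminal level was 617 in control and 966 in AKO. By Spearman's rho, 8 of the 10 genes most like the luminal members had a rho of 1, a tie of 57 among 1720 genes. For the basal members 5 of the 10 had a rho of 1, in a tie of 48. With 6 samples rho cannot order tied genes, so it does not check the choice of 10. Of the 13 median log2 fold changes of the lists, both layers of members included, 8 changed sign without control replicate 2, 5 without AKO replicate 2, 1 without control replicate 1, 1 without control replicate 3 and 0 without AKO replicate 1 or 3, or with TMM factors. Leaving samples out of the summed levels was added after seeing the data. At the depth used, 3 reads correspond to 2.88 to 3.23 normalized counts, so that a level below these cannot be told from 0.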

Other observations

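Within the basal list, Lgr6, a receptor for R-spondins found in some epithelial and stem cell populations, differed from the members in following genotype. It had 135, 139 and 84.4 normalized counts in control iWAT and 32.7, 26.4 and 28.0 in AKO iWAT, with means of 120 ± 30.5 and 29.0 ± 3.27 (SD, n = 3 each). The groups did not overlap. The log2 difference, AKO minus control, was -1.98 with a standard error of 0.23. Its adjusted p was 0.0692 from limma, 0.0861 from edgeR and 7.3e-08 from DESeq2. Over all 14 alternative settings it stayed between -2.21 and -1.71, with adjusted p-values up to 0.254. The gene was called under 2 of them, DESeq2 and a limma alternative. Lgr6 was picked with its values in view, and its r to the luminal mean was -0.45.

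Glycam1 of the milk protein list, which is also made by the vessels of lymph nodes, had 87.3, 0 and 1.02 normalized counts in control iWAT and 0, 232 and 0 in AKO iWAT. Dsc3 of the basal list had 22.1, 0 and 0 in control iWAT and 0, 45.9 and 0 in AKO iWAT. Both were high in the same samples as the lymph node genes, control replicate 1 and AKO replicate 2, and at or near 0 in control replicate 3, where the members were high.

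Control replicate 2, which was lowest for all 10 members, had the highest Myh1 (444, beside 12.04 to 78.7 in the other samples) and Myh2 (126, beside 1.95 to 30.7). It also had the lowest Lep (3822, beside 6601 to 8702). Other genes of the same lists differed from these. The other muscle genes were all highest in AKO replicate 3, with Acta1 at 27039 beside 6536 in control replicate 2. No other adipocyte gene was lowest in control replicate 2, where Fabp4 (212899) and Lipe (36266) were highest. Myh1, Myh2 and Lep were chosen with their values in view, and none of the 3 was called between genotypes by limma.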
